A study of Rattus norvegicus with 28 samples.

Results

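The genes described here are NRF2 (Nfe2l2), its inhibitor KEAP1 (Keap1) and 6 genes of the antioxidant response that NRF2 is known to control: Txnrd1, Srxn1, Gclc, Gclm, Slc7a11 and Gsr. The genes were chosen with earlier results of these data known. All non-control probes of the array for these genes were then taken, older names of the same gene included, without regard to the values of single probes. This gave 8 genes with 11 probes, of 37806 gene names with 41012 probes on the array. Txnrd1 had 3 probes, Srxn1 had 2, and the other genes had 1 each. The Srxn1 probes are listed in the files as LOC296271 and AY325205, and the Slc7a11 probe as LOC310392. The probe listed as AY325205 was assigned to Srxn1 through a synonym in RefSeq alone, so its identity is less sure. All 11 probes were well above background in both channels on all 28 arrays, none was saturated, and all 8 genes were among the 34849 gene names tested.

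The study exposed primary rat hepatocytes to a chlorinated dioxin (TCDD) and 2 chlorinated furans (TCDF and PeCDF), all ligands of the aryl hydrocarbon receptor. Cells of animals A and B, both adult female Sprague-Dawley rats, were plated on Matrigel and kept for 48 h in medium with ITS+ and 0.1 uM dexamethasone, which all groups shared. For the next 24 h they were left untreated or given TCDD at 0.01 or 1 nM, TCDF at 0.1 or 10 nM, PeCDF at 0.02 or 2 nM, or the vehicle, 0.1% DMSO. The RNA of 3 dishes of an animal was pooled, and each of the 7 groups was hybridised against DMSO RNA of the same animal on 4 two-colour arrays, 2 dye orientations (plus and minus) for each of 2 animals. Each value below is a log2 ratio of the group over DMSO, so DMSO lies at 0, and the error is the standard error (SE) of a fit over 14 animal-level ratios. A gene was called higher or lower at an adjusted p under 0.05, with adjustment over all gene names tested. With 2 animals per group the spread within a group rests on few values and is shared across groups. The labels do not state whether a single DMSO preparation served all arrays of an animal, so the comparisons with DMSO may share their control RNA. The scans were read in 2 extraction sessions, with untreated cells and TCDD in one and the furans in the other.

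NRF2 is a transcription factor that KEAP1 holds in the cytoplasm and directs to degradation by way of a CUL3 ubiquitin ligase. When oxidants or electrophiles modify KEAP1, NRF2 accumulates, pairs with small MAF proteins and binds antioxidant response elements (AREs) of its target genes. In liver these targets supply glutathione, reduce oxidised thiols and detoxify quinones. Most control of NRF2 acts on the protein, which was not measured here.

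Promoter windows were read to show which of the genes with a change in RNA carry the letters of an ARE or of the element bound by the aryl hydrocarbon receptor (XRE). The windows, from RefSeq (build GRCr8), run from 250 bases before to 50 bases after a listed transcript start, and 7 of the 8 genes had one. For 3 genes (Keap1, Srxn1 and Gclm) this start is the outer end of the annotated gene. For the other 4 it lies inside the gene, by 225 bases for Gclc and by 296 for Slc7a11. It lies further inside for Nfe2l2 and for the 2 starts of Txnrd1 (46649 and 37702 bases). The Gclc window still took in the outer end of its gene, but little beyond it. The outermost starts of Slc7a11, Nfe2l2 and Txnrd1 were not searched. An ARE core was searched as TGACNNNGC, the AP-1-like form as TGANTCAGC and the XRE core as GCGTG, each on both strands. The first 2 motifs can match the same letters. Over all 33465 windows, 12.1% held the ARE core, 1.11% the AP-1-like form and 29.7% the XRE core. Shown are Nfe2l2 (chr3:81028950-81029249, minus strand), Txnrd1 at its first listed start (chr7:22755855-22756154, minus strand), Gclm (chr2:213031885-213032184, plus strand) and Srxn1 (chr3:161064562-161064861, plus strand), each 5′ to 3′ with matches in capitals.
Nfe2l2: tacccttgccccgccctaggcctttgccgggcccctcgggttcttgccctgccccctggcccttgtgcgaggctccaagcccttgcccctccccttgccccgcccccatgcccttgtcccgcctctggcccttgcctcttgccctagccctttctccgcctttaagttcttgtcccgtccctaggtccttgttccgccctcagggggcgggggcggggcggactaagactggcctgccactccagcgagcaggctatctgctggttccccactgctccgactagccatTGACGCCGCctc
Txnrd1: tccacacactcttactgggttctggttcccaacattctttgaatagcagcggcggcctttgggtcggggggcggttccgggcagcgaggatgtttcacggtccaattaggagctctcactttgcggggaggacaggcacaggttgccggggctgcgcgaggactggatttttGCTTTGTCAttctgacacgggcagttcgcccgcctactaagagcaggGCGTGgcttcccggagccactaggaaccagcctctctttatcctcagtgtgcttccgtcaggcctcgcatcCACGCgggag
Gclm: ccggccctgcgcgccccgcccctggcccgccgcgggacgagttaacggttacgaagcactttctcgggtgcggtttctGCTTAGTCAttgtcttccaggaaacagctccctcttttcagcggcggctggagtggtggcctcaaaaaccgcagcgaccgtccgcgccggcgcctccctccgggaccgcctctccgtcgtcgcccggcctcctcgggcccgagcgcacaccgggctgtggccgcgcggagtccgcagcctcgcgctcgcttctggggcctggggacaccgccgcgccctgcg
Srxn1: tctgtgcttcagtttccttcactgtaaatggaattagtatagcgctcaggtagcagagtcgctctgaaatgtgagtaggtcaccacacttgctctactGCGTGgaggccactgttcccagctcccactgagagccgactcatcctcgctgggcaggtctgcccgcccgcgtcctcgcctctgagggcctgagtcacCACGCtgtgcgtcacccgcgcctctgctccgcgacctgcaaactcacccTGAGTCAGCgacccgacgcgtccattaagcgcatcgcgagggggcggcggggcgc
Nfe2l2 held 1 ARE core, which began 38 bases after this start, and no XRE core. Txnrd1 held an ARE core on the opposite strand and 2 XRE cores in this window, and none of the motifs at its second listed start. Gclm held 1 ARE core, also on the opposite strand. Srxn1 held 2 XRE cores and the AP-1-like form, which began at base -5 from the start and ran across it. The windows of Keap1 and Gclc held 3 and 1 XRE cores and no ARE letters, and that of Slc7a11 held no match to any of the motifs. A match is a run of letters and not a measured binding site.

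At the upper doses, Nfe2l2 and Txnrd1 were higher than in DMSO with all 3 compounds. Of the 8 genes, 4 were called higher with TCDD at 1 nM, where 4.63% of all gene names were called higher and 5.92% lower. TCDF at 10 nM gave 3 called higher against 1.11% of all gene names (1.26% lower), and PeCDF at 2 nM gave 3 against 1.72% (2.67% lower). Because earlier results of these data were known when the genes were chosen, counts above these shares are not independent evidence. None of the 8 was called lower in any group by the limma fit, and none had an unadjusted p under 0.05 in that direction against DMSO. The median ratio of the 8 genes was 0.32 with TCDD at 1 nM, 0.33 with TCDF at 10 nM and 0.21 with PeCDF at 2 nM. The median over all gene names tested was 0.00 in each, a value set by the normalization, which centres each array near 0. With TCDF at 10 nM and with PeCDF at 2 nM all 8 genes were above 0 on all 4 arrays, and with TCDD at 1 nM 4 of them were.

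**Figure D1:**
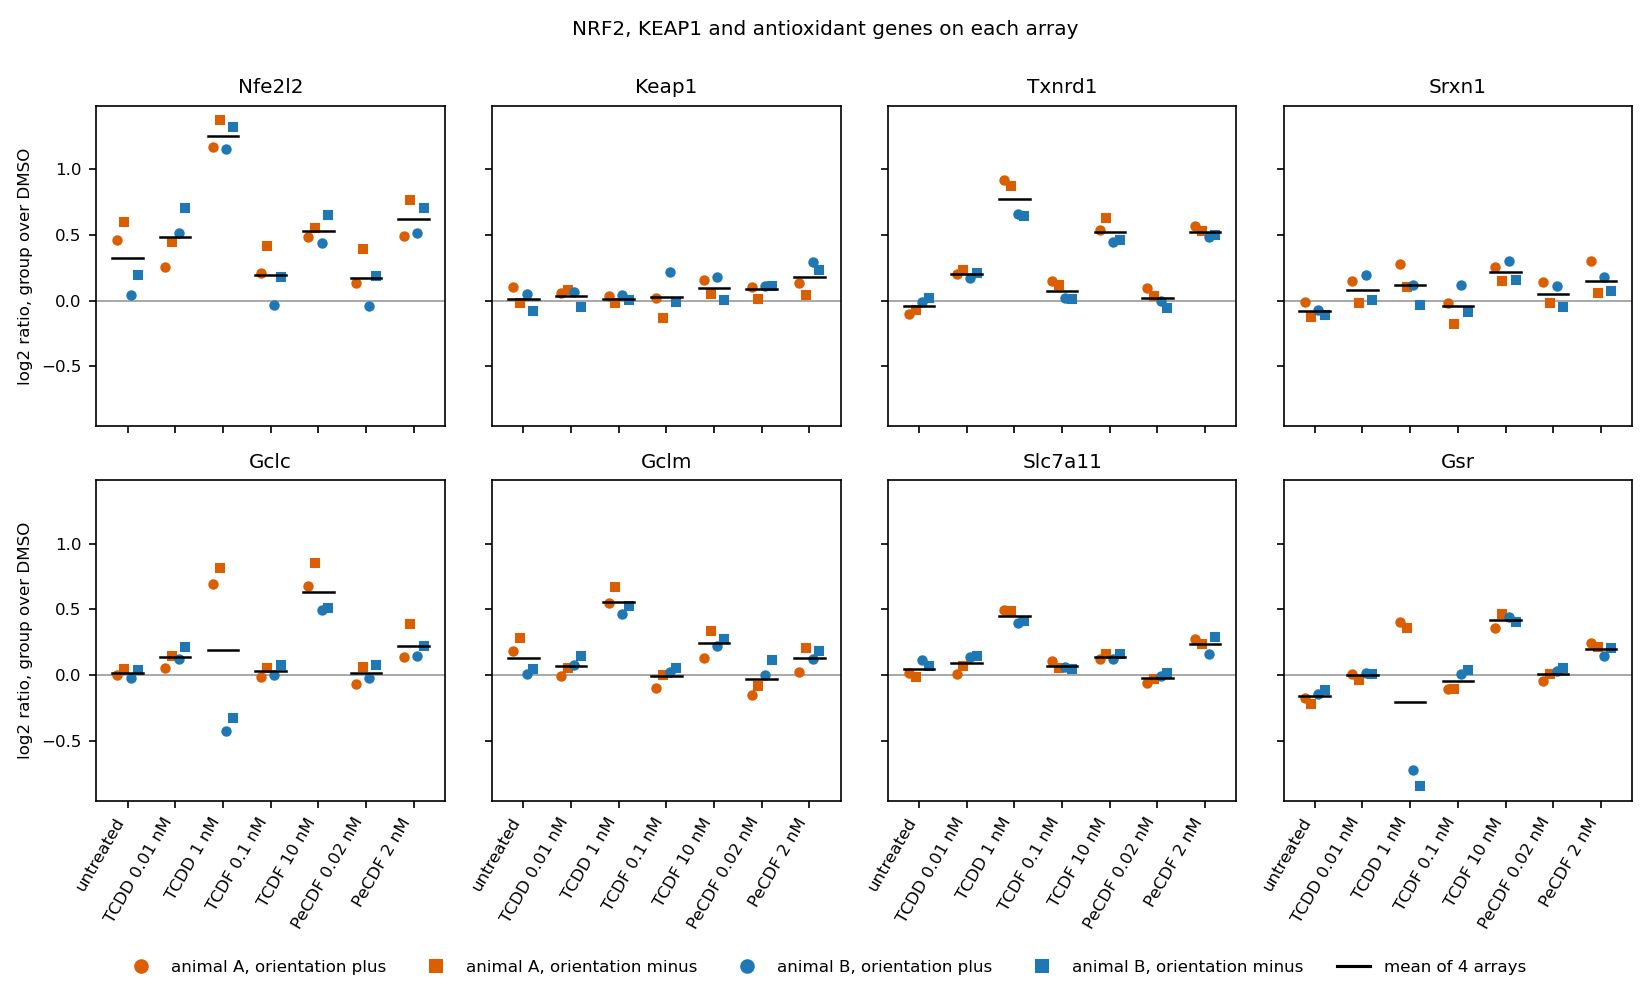
Log2 ratio of each group over DMSO (vertical axis) for the brightest probe of the 8 genes, by group (horizontal axis). Points are single arrays, coloured by animal and shaped by dye orientation, and bars are means of 4 arrays. Nfe2l2 lay between 1.15 and 1.37 on the arrays of TCDD at 1 nM, above every array of the other groups, and the 2 animals lay on opposite sides of 0 for Gclc and Gsr in that group.

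Nfe2l2 RNA, which encodes NRF2 itself, had the largest called change of the 8 genes with each compound. The plus and minus arrays of TCDD at 1 nM gave 1.17 and 1.37 in animal A and 1.15 and 1.32 in animal B. With TCDF at 10 nM they gave 0.48 and 0.55 in A and 0.44 and 0.65 in B. With PeCDF at 2 nM they gave 0.49 and 0.76 in A and 0.52 and 0.71 in B. The TCDD arrays, 2 orientations of 2 animals, did not overlap those of either furan, which were read in the other session. The arrays of the 2 furans overlapped each other. Here and below, how many of all gene names show such a gap was not counted. In the limma fit the difference of TCDD from TCDF (adjusted p = 0.09203) or PeCDF (adjusted p = 0.06019) was not called. Across the settings tried, the difference ran from 0.27 to 0.75 for TCDF and from 0.63 to 0.66 for PeCDF. The fitted ratios were 1.25 ± 0.09 for TCDD (2.39-fold, adjusted p = 3.208e-05), 0.53 ± 0.09 for TCDF (1.45-fold, adjusted p = 0.01835) and 0.62 ± 0.09 for PeCDF (1.54-fold, adjusted p = 0.007163). The call for TCDD held without either animal. The furan calls did not: with TCDF the adjusted p was 0.267 without A and 0.1714 without B, and for PeCDF it was 0.1363 without A and 0.06262 without B. With median centring in place of loess the TCDF value was 1.11 and the PeCDF value 0.72, with adjusted p of 0.06271 and 0.4444.

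Ratios of Nfe2l2 were also above 0 in groups where it was not called. With TCDD at 0.01 nM the arrays gave 0.26 and 0.45 in animal A and 0.52 and 0.71 in B, a mean of 0.48 ± 0.09 (adjusted p = 0.07007). Untreated cells, which had no vehicle, gave 0.46 and 0.60 in A and 0.04 and 0.19 in B, a mean of 0.32 ± 0.09 (adjusted p = 0.2762). The mean was 0.19 with TCDF at 0.1 nM and 0.17 with PeCDF at 0.02 nM, with 1 of the 4 arrays below 0 in each. In order of the mean the groups were TCDD 1 nM, PeCDF 2 nM, TCDF 10 nM, TCDD 0.01 nM, untreated, TCDF 0.1 nM and PeCDF 0.02 nM. Apart from the step between TCDD 1 nM and the next group, neighbours in this order overlapped on single arrays. The minus orientation was higher than the plus orientation in all 14 pairs of arrays, by a median of 0.195, an offset that cancels in the mean of both.

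Keap1, which encodes the adaptor that presents NRF2 for degradation, was not called in any group. Its arrays lay between -0.02 and 0.05 with TCDD at 1 nM, and the fitted ratio was 0.02 (95% interval -0.09 to 0.12, adjusted p = 0.9165). With TCDF at 10 nM it was 0.10 (-0.01 to 0.20). The highest ratio was 0.18 ± 0.05 with PeCDF at 2 nM (adjusted p = 0.0736), where animal A gave 0.09 and animal B 0.26. With a block for each animal in each extraction session, a setting added after the data were seen, this PeCDF ratio was called (adjusted p = 0.03236).

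Txnrd1 encodes the cytosolic thioredoxin reductase, which returns oxidised thioredoxin to its reduced form with NADPH. On its brightest probe the plus and minus arrays of TCDD at 1 nM gave 0.92 and 0.87 in animal A and 0.66 and 0.65 in animal B. With TCDF at 10 nM they gave 0.54 and 0.63 in A and 0.45 and 0.46 in B, and with PeCDF at 2 nM 0.57 and 0.53 in A and 0.48 and 0.50 in B. All TCDD arrays lay above all furan arrays, which were read in the other session, and the furan arrays overlapped. The limma fit did not call the difference of TCDD from TCDF (adjusted p = 0.2688) or PeCDF (adjusted p = 0.1853). With median centring in place of loess, TCDD at 1 nM lay below TCDF at 10 nM, by -0.15 (adjusted p = 0.7013). Fitted ratios were 0.77 ± 0.06 for TCDD (1.71-fold, adjusted p = 3.243e-05), 0.52 ± 0.06 for TCDF (1.43-fold, adjusted p = 0.002258) and 0.52 ± 0.06 for PeCDF (1.43-fold, adjusted p = 0.001787). At the lower doses the ratio was 0.20 with TCDD, 0.08 with TCDF and 0.02 with PeCDF, and it was -0.04 in untreated cells, none of them called. Without animal A the adjusted p was 0.09796 for TCDF and 0.05719 for PeCDF. With median centring it was 0.07213 for TCDD, 0.06271 for TCDF and 0.5125 for PeCDF, and the TCDF ratio was then 1.01.

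The other Txnrd1 probes were dimmer and less even between animals. On the second probe the fitted ratio was 0.55 ± 0.08 with TCDD at 1 nM (adjusted p = 0.00205), 0.48 ± 0.08 with TCDF at 10 nM (adjusted p = 0.01781) and 0.57 ± 0.08 with PeCDF at 2 nM (adjusted p = 0.006684), so the TCDD value was not the highest there. On the third and dimmest probe no group was called, and the SE was 0.21. That probe gave 1.12 and 1.17 in animal A and 0.29 and 0.30 in animal B with TCDD at 1 nM, but 0.14 on both arrays of A and 0.65 and 0.60 on those of B with TCDF at 10 nM. Both arrays of an animal gave like values in these groups while the animals differed, in opposite directions for TCDD and TCDF.

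**Figure D2:**
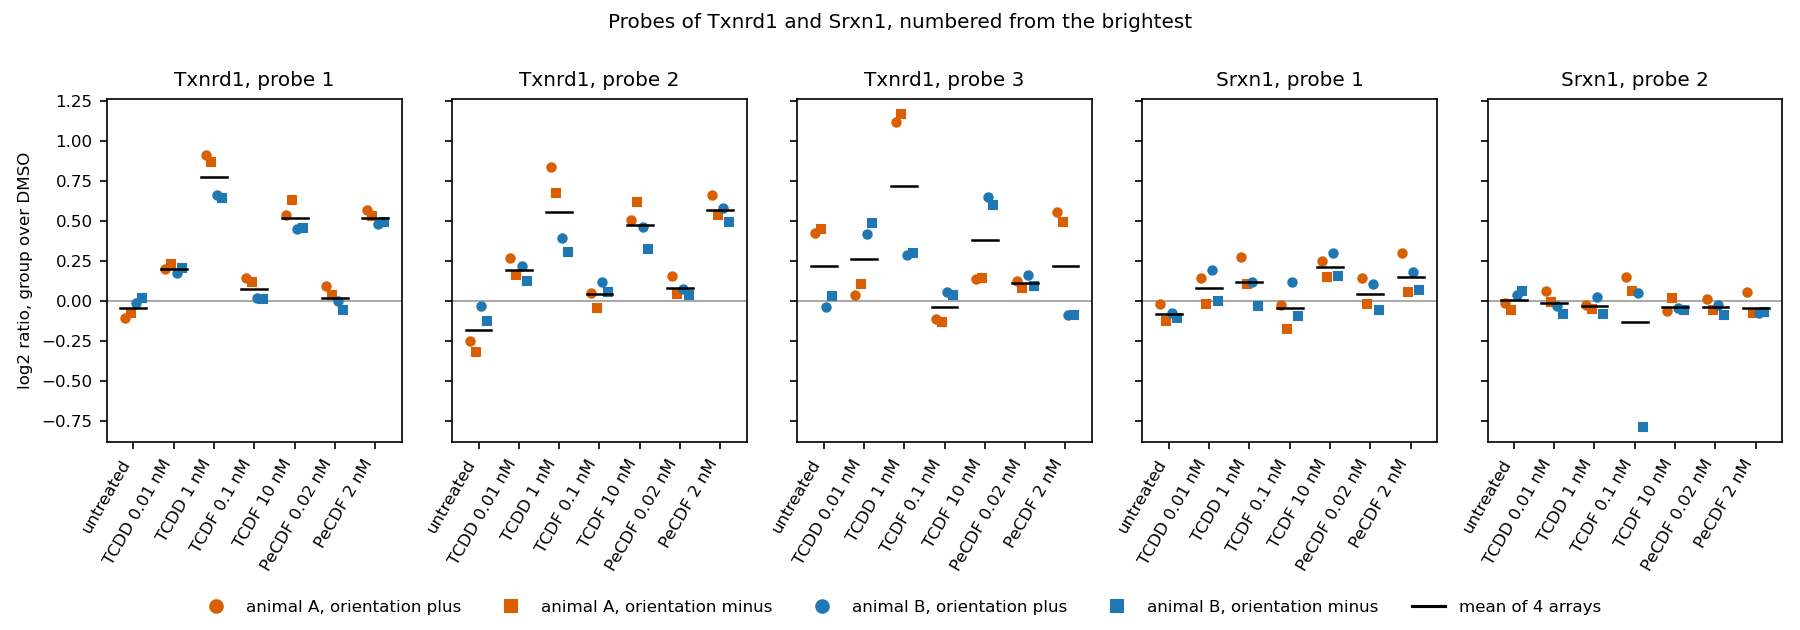
Log2 ratio over DMSO (vertical axis) for the 3 probes of Txnrd1 and the 2 probes of Srxn1, numbered from the brightest, by group (horizontal axis). Points are arrays, coloured by animal and shaped by orientation, and bars are means of 4 arrays. Probes 1 and 2 of Txnrd1 lay above 0 at all upper doses, and the probe numbered 2 for Srxn1, whose identity is less sure, had means between -0.13 and 0.01 in all 7 groups.

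Srxn1 encodes sulfiredoxin, which repairs overoxidised peroxiredoxins. Its brightest probe gave 0.25 and 0.15 in animal A and 0.30 and 0.16 in animal B with TCDF at 10 nM, a ratio of 0.22 ± 0.04 (1.16-fold, adjusted p = 0.02672). All 4 of these arrays were above 0. It was not called with PeCDF at 2 nM (0.15 ± 0.04, adjusted p = 0.07021) or with TCDD at 1 nM (0.12 ± 0.04, adjusted p = 0.1048). The second probe, assigned to Srxn1 through a synonym alone, gave -0.03 with TCDF at 10 nM (95% interval -0.22 to 0.15) and was called in no group. Whether it measures the same transcript was not tested. Its values in TCDF at 0.1 nM hold 1 array at -0.78 against 0.05 to 0.15 on the other 3. The call on the brightest probe was lost in the authors' deposited ratios (adjusted p = 0.1527), with the furan session fitted alone (0.05435), with median centring (ratio 0.53, adjusted p = 0.06271) and without animal A (0.295) or B (0.2482). The plus orientation was higher in all 14 pairs of arrays, by a median of 0.158.

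Gclc and Gclm encode the catalytic and the modifier subunit of glutamate-cysteine ligase, the rate-limiting enzyme of glutathione synthesis. Gclm was called higher with TCDD at 1 nM and in no other group. The plus and minus arrays of TCDD at 1 nM gave 0.55 and 0.67 in animal A and 0.47 and 0.53 in B, against 0.13 and 0.34 in A and 0.22 and 0.28 in B with TCDF at 10 nM. With PeCDF at 2 nM they gave 0.02 and 0.20 in A and 0.12 and 0.18 in B. The TCDD arrays, 2 orientations of 2 animals, did not overlap those of the furans, which were read in the other session. The difference from TCDF was not called in the limma fit (adjusted p = 0.1859) and was -0.07 with median centring. Fitted ratios were 0.55 ± 0.06 for TCDD (1.47-fold, adjusted p = 0.0002329), 0.24 ± 0.06 for TCDF (adjusted p = 0.06154) and 0.13 ± 0.06 for PeCDF (adjusted p = 0.2587). With median centring the TCDD ratio was 0.64 with an adjusted p of 0.1327, and with the animal-by-session block the TCDF ratio was called (adjusted p = 0.03717).

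Gclc gave a different picture, with its highest mean in TCDF at 10 nM. There the arrays gave 0.68 and 0.86 in animal A and 0.49 and 0.51 in animal B. The ratio was 0.64 ± 0.18 and was not called (1.55-fold, adjusted p = 0.1329). Fitted with the furan session alone, which leaves out the TCDD arrays and their spread, the same ratio had an SE of 0.06 and was called (adjusted p = 0.008091). With TCDD at 1 nM the arrays gave 0.69 and 0.82 in A but -0.42 and -0.33 in B, so the mean of 0.19 ± 0.18 (adjusted p = 0.6373) describes neither animal. PeCDF at 2 nM gave 0.13 and 0.39 in A and 0.14 and 0.22 in B, with a ratio of 0.22 ± 0.18 (adjusted p = 0.6401).

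Gsr encodes glutathione reductase, which regenerates glutathione from its oxidised form. It was called in no group in the fit over all groups and split by animal as Gclc did. Its arrays gave 0.41 and 0.36 in animal A and -0.72 and -0.84 in animal B with TCDD at 1 nM. With TCDF at 10 nM they gave 0.36 and 0.47 in A and 0.44 and 0.40 in B, and with PeCDF at 2 nM 0.24 and 0.22 in A and 0.14 and 0.21 in B. Both animals were thus above DMSO with the furans and on opposite sides of it with TCDD. Fitted ratios were -0.20 ± 0.19 for TCDD (adjusted p = 0.6152), 0.42 ± 0.19 for TCDF (adjusted p = 0.3881) and 0.20 ± 0.19 for PeCDF (adjusted p = 0.685). With the furan session alone the TCDF ratio had an SE of 0.0405 and was called (adjusted p = 0.008694), as for Gclc. In untreated cells all 4 arrays were below 0, between -0.22 and -0.11, with a ratio of -0.16 (adjusted p = 0.8728).

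The split of Gclc and Gsr in TCDD at 1 nM had the same sign in both orientations of each animal. Animal A minus animal B was 1.13 for Gclc and 1.16 for Gsr, against a median absolute difference of 0.0764 over all gene names in that group. By this difference Gsr ranked at place 83 and Gclc at place 93 of 34787 gene names. Ratios above 0.2 in A together with ratios below -0.2 in B were found for 137 gene names there (0.394%), a limit set after the values of both genes were seen. Other genes with large differences were Calr (0.08 in A, -1.56 in B), which encodes a chaperone of the endoplasmic reticulum, and Ctnnb1 (-0.13 in A, -1.60 in B), which encodes beta-catenin, named here after their values were seen. Without animal A, TCDD at 1 nM gave 2 of the 8 genes called lower, Gclc at -0.38 (adjusted p = 0.01321) and Gsr at -0.78. Without animal B both were called higher, Gclc at 0.75 (adjusted p = 0.0009931) and Gsr at 0.38 (adjusted p = 0.005073). With a lone animal the spread is assumed to be that of the other groups, and the cause of the split was not tested.

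**Figure D3:**
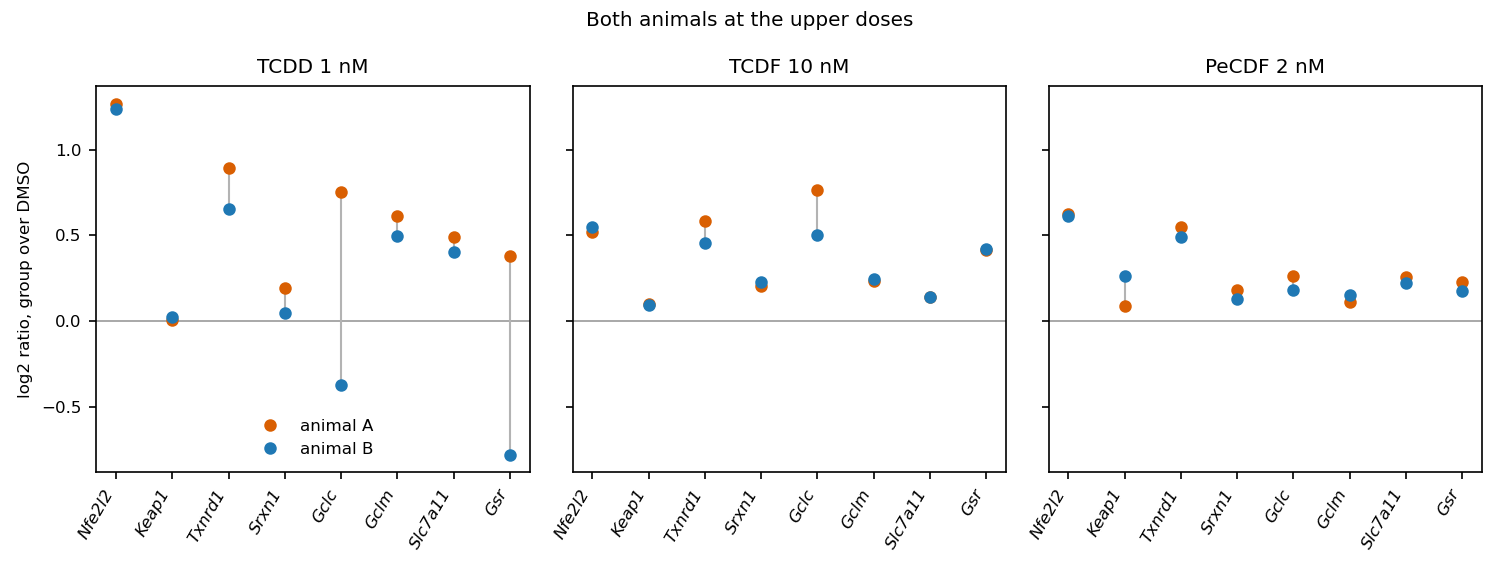
Log2 ratio over DMSO (vertical axis) of animals A and B for the 8 genes (horizontal axis) at the upper dose of each compound. Points are means of 2 dye orientations and grey lines join the animals. With TCDD at 1 nM Gclc was at 0.75 in A and -0.38 in B and Gsr at 0.38 and -0.78, while both animals were above 0 for all 8 genes with the furans.

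Slc7a11 encodes the transport subunit of the cystine-glutamate exchanger, which brings in cystine for glutathione synthesis. The plus and minus arrays of TCDD at 1 nM gave 0.49 and 0.49 in animal A and 0.40 and 0.41 in animal B. With TCDF at 10 nM they gave 0.12 and 0.16 in each animal, and with PeCDF at 2 nM 0.27 and 0.24 in A and 0.16 and 0.29 in B. The TCDD arrays lay above all furan arrays, which were read in the other session. The limma fit called neither difference (adjusted p = 0.07759 for TCDF and 0.105 for PeCDF). Ratios were 0.45 ± 0.04 for TCDD (1.36-fold, adjusted p = 6.453e-05) and 0.24 ± 0.04 for PeCDF (1.18-fold, adjusted p = 0.008321), both called, and 0.14 ± 0.04 for TCDF (adjusted p = 0.1012), not called. The size depended on the processing. Across the settings tried, the TCDD ratio ran from 0.16 to 0.67 and the PeCDF ratio from 0.09 to 0.36. The difference of TCDD from TCDF ran from 0.09 to 0.40 and that from PeCDF from 0.07 to 0.31. This probe was the dimmest of those standing for the 8 genes. The PeCDF call was lost without animal A (adjusted p = 0.1663), without animal B (0.0584) and with median centring (0.3378). Slc7a11 is also a target of ATF4, a factor of the amino acid stress response. Of 12 ATF4 targets tested, 5 rose and 2 fell with TCDD at 1 nM, while 1 fell with each furan at its upper dose and none rose. Over all gene names 4.63% rose and 5.92% fell with TCDD, 1.11% and 1.26% with TCDF, and 1.72% and 2.67% with PeCDF. Atf4 itself was at 0.24 ± 0.04 with TCDD at 1 nM (adjusted p = 0.004042), Atf3 at 0.57 ± 0.13 (adjusted p = 0.02098) and Trib3 at 0.42 ± 0.09 (adjusted p = 0.01647), while Nupr1 was at -0.61 ± 0.07 (adjusted p = 0.0003891) and Ddit3 at -0.22 ± 0.05 (adjusted p = 0.02321).

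**Figure D4:**
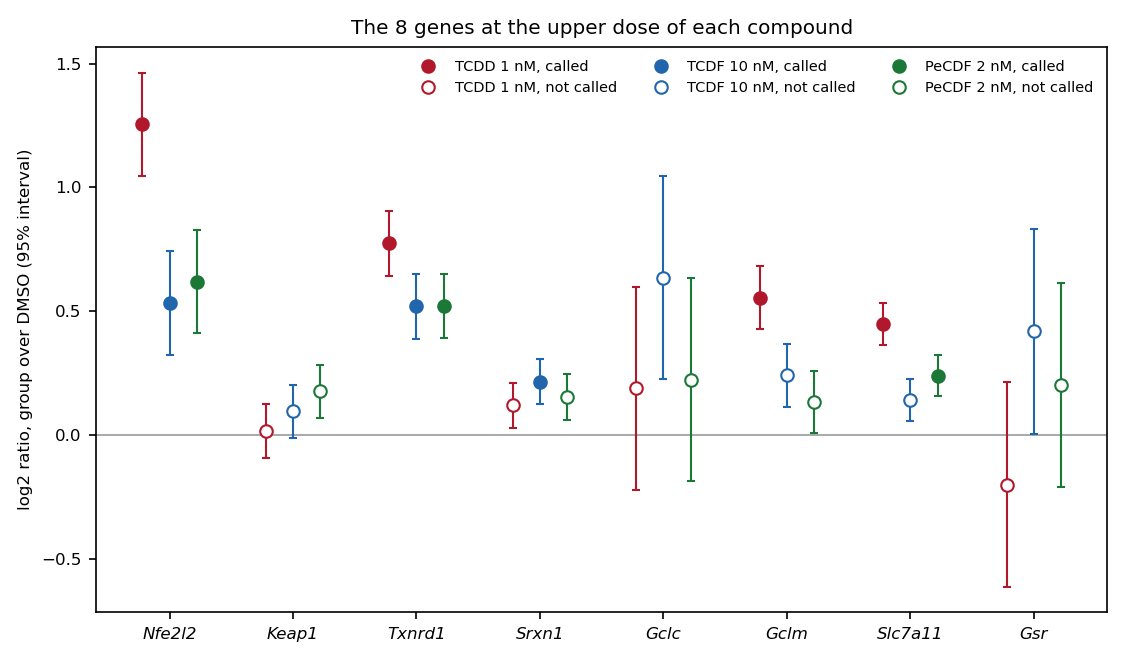
Fitted log2 ratio over DMSO with its 95% interval (vertical axis) for the 8 genes (horizontal axis) at the upper dose of each compound. Filled points were called over all gene names and open points were not. The intervals of Gclc and Gsr were the widest, and Nfe2l2, at 1.25 with TCDD, was the highest point.

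Differences between the upper doses were tested in the same fit. The doses were not matched (1 nM TCDD, 10 nM TCDF, 2 nM PeCDF), and TCDD was read in a different scan-extraction session from the furans, so for TCDD against a furan compound, dose and session cannot be told apart. TCDD at 1 nM minus PeCDF at 2 nM gave 1 of the 8 genes called higher, against 0.448% of all gene names (0.399% lower). That gene was Gclm, with a difference of 0.42 ± 0.08 (adjusted p = 0.04683), called in neither the fit with the animal as a replicate block (adjusted p = 0.05169) nor any fit without animal A or B. Nfe2l2 differed by 0.64 (95% interval 0.34 to 0.93, adjusted p = 0.06019), which was called with the animal-by-session block (adjusted p = 0.04147). TCDD at 1 nM minus TCDF at 10 nM gave none of 8 called in the limma fit, against 0.0402% of all gene names higher and 0.023% lower, with 4 higher and 1 lower at an unadjusted p under 0.05. The differences there were 0.72 for Nfe2l2 (0.43 to 1.02, adjusted p = 0.09203), 0.31 for Slc7a11 (0.19 to 0.43, adjusted p = 0.07759) and 0.31 for Gclm (0.13 to 0.49, adjusted p = 0.1859). With median centring the Gclm difference was -0.07 (adjusted p = 0.8402). Across the settings tried, the difference from TCDF ran from 0.27 to 0.75 for Nfe2l2 and from 0.09 to 0.40 for Slc7a11.

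The 2 furans, which shared a session, gave no called difference among the 8 genes. PeCDF at 2 nM minus TCDF at 10 nM gave 0 of 8 in the limma fit, 0% of all gene names in either direction, and 0 of 8 at an unadjusted p under 0.05. Txnrd1 differed by 0.00 (95% interval -0.18 to 0.18; -0.39 with median centring, adjusted p = 0.4677), Nfe2l2 by 0.09 (-0.21 to 0.38) and Slc7a11 by 0.10 (-0.02 to 0.22). The interval of Gclc, -0.99 to 0.17 around -0.41, leaves room for a large difference.

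Within TCDD the upper dose was 100 times the lower, and 4 of 8 genes were higher at 1 nM than at 0.01 nM, against 1.39% of all gene names (2.34% lower). These were Nfe2l2 (0.77 ± 0.13, adjusted p = 0.01116), Txnrd1 (0.57 ± 0.08, adjusted p = 0.004728), Gclm (0.49 ± 0.08, adjusted p = 0.009527) and Slc7a11 (0.36 ± 0.05, adjusted p = 0.005747). With untreated cells and TCDD fitted alone, 1 of the 4 calls remained, that of Txnrd1, and without animal A the adjusted p was 0.1412 for Nfe2l2, 0.1396 for Gclm and 0.09443 for Slc7a11. Nfe2l2 had an adjusted p of 0.05196 without animal B. The steps of TCDF and of PeCDF gave 0 of 8 called in the limma fit, against 0.0172% higher and 0.0718% lower for TCDF and 0.0258% higher and 0.0574% lower for PeCDF. At an unadjusted p under 0.05, 5 genes were higher in the TCDF step and 3 in the PeCDF step. Txnrd1 differed by 0.44 (95% interval 0.26 to 0.63, adjusted p = 0.1671) in the TCDF step and by 0.50 (0.32 to 0.68, adjusted p = 0.07362) in the PeCDF step, and the PeCDF step was called with the animal as a replicate block (adjusted p = 0.04033).

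None of the 8 genes was called against DMSO at a lower dose or in untreated cells in the limma fit. Over all gene names 0.0947% were called higher and 0.356% lower with TCDD at 0.01 nM, 0.00287% and 0% with TCDF at 0.1 nM, 0% and 0% with PeCDF at 0.02 nM, and 0.023% and 0.0201% in untreated cells. At an unadjusted p under 0.05, 3 of the 8 were higher with TCDD at 0.01 nM, 2 in untreated cells, and 0 at the lower dose of either furan. The 3 with TCDD were Nfe2l2, Txnrd1 at 0.20 and Slc7a11 at 0.09.

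Of 14 other regulators of NRF2 tested, 1 was called higher with TCDD at 1 nM and none with TCDF at 10 nM or PeCDF at 2 nM, and their medians were 0.02, 0.04 and 0.06. Over all gene names 4.63%, 1.11% and 1.72% were called higher, so with 14 genes these counts are near that background. The called gene was Gsk3b, which encodes a kinase that marks NRF2 for a KEAP1-independent route of degradation, at 0.20 ± 0.05 (adjusted p = 0.02936). Bach1, which encodes a repressor at AREs, was at 0.07, 0.02 and 0.13 with TCDD, TCDF and PeCDF at their upper doses. Mafk, which encodes a small MAF partner of NRF2 and was named after its values were seen, had the highest ratios of the regulators, at 0.34 ± 0.14 (adjusted p = 0.1685), 0.25 ± 0.14 (adjusted p = 0.5522) and 0.55 ± 0.14 (adjusted p = 0.05796). Mafg, another such partner, was at 0.18, 0.08 and 0.06, Cul3, the ligase scaffold, at -0.01, 0.05 and 0.18, and Sqstm1, which encodes the KEAP1-binding protein p62, at -0.04, 0.18 and 0.21. None of the values of Bach1, Mafk, Mafg, Cul3 and Sqstm1 passed the test.

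A wider set of 62 genes of glutathione, thioredoxin, NADPH, quinone, heme and antioxidant metabolism moved in both directions. With TCDD at 1 nM, 12 rose and 7 fell, with TCDF at 10 nM 6 rose and 2 fell, and with PeCDF at 2 nM 6 rose and 3 fell. The shares over all gene names were 4.63% higher and 5.92% lower with TCDD, 1.11% and 1.26% with TCDF, and 1.72% and 2.67% with PeCDF. The medians were -0.03, 0.04 and 0.06. Nqo1, Aldh3a1, Ugt1a6 and Gsta2 of this set also belong to the receptor battery that checked the exposures (below). All of them were called higher with TCDD at 1 nM, so the set and the battery are not separate. In the quinone, aldehyde and export group, 6 of 16 rose and 1 fell with TCDD at 1 nM. Nqo1, the quinone reductase that both NRF2 and the aryl hydrocarbon receptor control, was at 1.54 ± 0.18 with TCDD (adjusted p = 0.0005272), 1.44 ± 0.18 with TCDF (adjusted p = 0.004366) and 1.61 ± 0.18 with PeCDF (adjusted p = 0.001903). The export pump gene Abcc4 was at 0.38 ± 0.06 with TCDD (adjusted p = 0.002514), and the aldo-keto reductase gene Akr1b8 at 1.28 ± 0.18 (adjusted p = 0.001481). Aldh3a1, an aldehyde dehydrogenase, was at 2.28 ± 0.36 (adjusted p = 0.002823) and Akr7a3, an aflatoxin aldehyde reductase, at 0.60 ± 0.07 (adjusted p = 0.0006704). Ugt1a6, a glucuronosyltransferase, rose with all 3 compounds and was at 1.16 ± 0.18 with TCDF (adjusted p = 0.009433).

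In the glutathione group 3 of 19 rose and 4 fell with TCDD at 1 nM. Gsta2, a glutathione transferase and a gene of the receptor battery too, was among those that rose. Glrx, which encodes glutaredoxin, was at 0.74 ± 0.08 with TCDD (adjusted p = 0.0002485) and rose with both furans too. Slc3a2, whose product is the heavy chain that pairs with the Slc7a11 protein in the exchanger, was at 0.30 ± 0.05 with TCDD (adjusted p = 0.00229), 0.24 with TCDF (adjusted p = 0.02886) and 0.33 with PeCDF (adjusted p = 0.005387). Cbs and Cth, the enzymes that make cysteine from homocysteine, were at -0.65 ± 0.05 (adjusted p = 3.721e-05) and -0.60 ± 0.10 (adjusted p = 0.003899) with TCDD. Mgst1, a microsomal glutathione transferase, was at -0.53 ± 0.10 (adjusted p = 0.008587) and Gpx4, which reduces lipid peroxides, at -0.31 ± 0.07 (adjusted p = 0.01446). The uptake genes Slc7a11 and Slc3a2 were thus above DMSO with TCDD at 1 nM, and the genes of cysteine synthesis were below it.

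Among the 10 thioredoxin genes Txn1, the substrate of the Txnrd1 protein, was at 0.18 ± 0.04 with TCDD at 1 nM (adjusted p = 0.01967), and Txnip, its inhibitor, at -0.27 ± 0.07 (adjusted p = 0.02642). Sod2, the mitochondrial superoxide dismutase, rose with all 3 compounds and was at 0.88 ± 0.06 with TCDD (adjusted p = 3.086e-05), 0.69 with TCDF (adjusted p = 0.0006724) and 0.29 with PeCDF (adjusted p = 0.03552), the only called gene of 4 in its group. Of 6 genes of NADPH supply, none rose: Me1, malic enzyme, was at -0.28 ± 0.05 with TCDD (adjusted p = 0.007002), and Tkt and Taldo1, of the pentose phosphate pathway, were at -0.40 (adjusted p = 0.01008) and -0.24 (adjusted p = 0.04009) with PeCDF. Hmox1, heme oxygenase and a common readout of NRF2, was not called, at 0.14 (adjusted p = 0.213) with TCDD, 0.06 (adjusted p = 0.8475) with TCDF and 0.06 (adjusted p = 0.7059) with PeCDF. Blvrb, a biliverdin reductase, was the called gene of the heme and iron group, at 0.15 with TCDD (adjusted p = 0.04824).

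**Figure D5:**
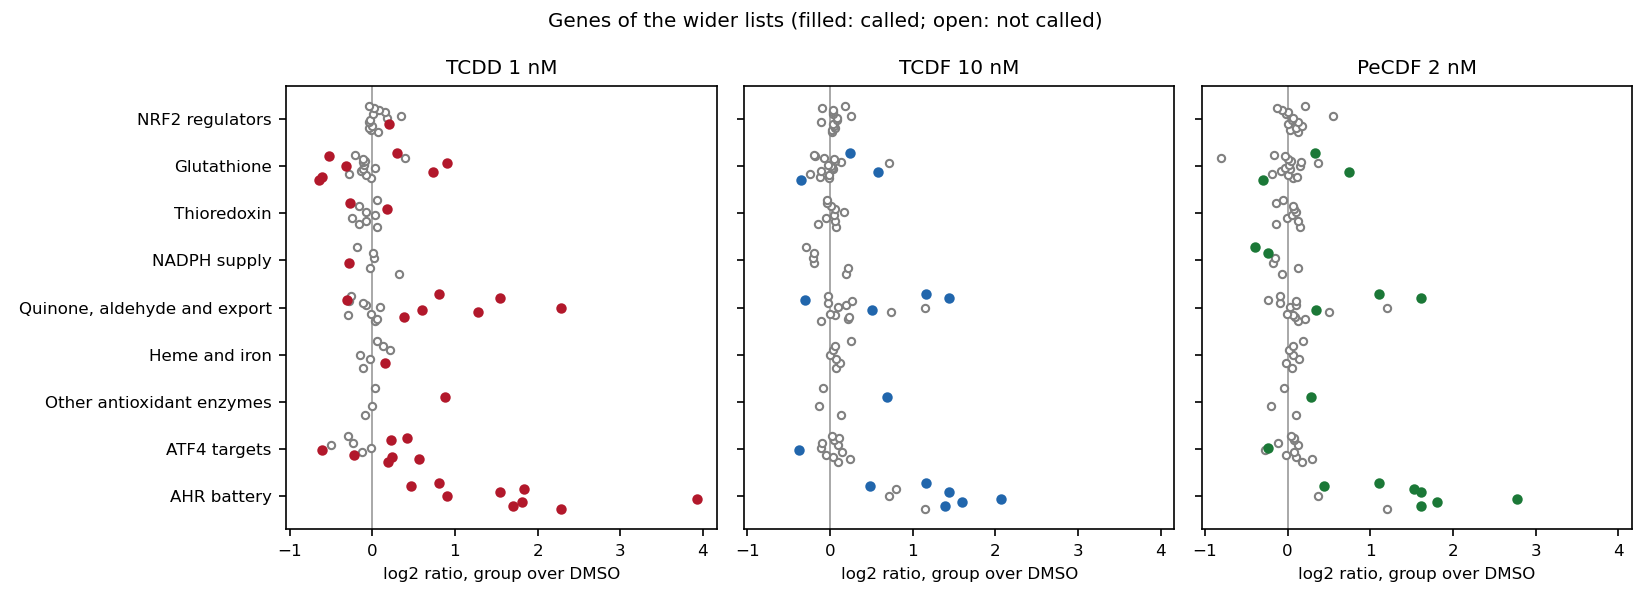
Log2 ratio over DMSO (horizontal axis) of the genes of each list (vertical axis) at the upper dose of each compound, with 1 point for each gene. Filled points were called over all gene names. The regulators of NRF2 lay between -0.13 and 0.55, with Mafk the highest, the glutathione and quinone groups spread to both sides, and all 9 tested genes of the receptor battery were called higher with TCDD at 1 nM.

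The genes of the aryl hydrocarbon receptor battery checked the exposures. All 9 of 9 tested were called higher with TCDD at 1 nM, with TCDF at 10 nM 6 and with PeCDF at 2 nM 7. Over all gene names 4.63%, 1.11% and 1.72% were called higher in these groups. Cyp1b1 was at 3.93 ± 0.15 with TCDD (adjusted p = 8.972e-07), 2.07 with TCDF (adjusted p = 0.0002) and 2.78 with PeCDF (adjusted p = 6.734e-05). Tiparp, a repressor of the receptor, was at 1.83 ± 0.25 (adjusted p = 0.001097), 0.80 (adjusted p = 0.1584) and 1.53 (adjusted p = 0.009132). Cyp1a1 was saturated in the test channel on 20 of 28 arrays, so its fitted ratios of 1.70 with TCDD, 1.39 with TCDF and 1.61 with PeCDF do not give the size of its change, and the TCDD value rests on 1 animal. Hepatocyte markers were well above background in DMSO RNA on all 28 arrays for 10 of 10 genes. So were 12 of 12 markers of Kupffer cells and leukocytes, 9 of 9 of stellate cells and fibroblasts, 5 of 7 of endothelial cells and 6 of 7 of cholangiocytes. Most probes of the array passed this limit on any single array. In the DMSO channel the share well above background had a median of 88.7% over the arrays and was 76.0% at its lowest. The marker counts therefore do not show whether a cell type was present. With TCDD at 1 nM, 2 hepatocyte markers, 4 Kupffer and leukocyte markers, 2 stellate markers and 1 cholangiocyte marker were called lower, and 1 Kupffer and leukocyte marker higher, with list medians of -0.105 for hepatocytes, -0.14 for Kupffer cells and leukocytes, 0.00 for stellate cells and -0.06 for cholangiocytes. With TCDF at 10 nM 1 Kupffer and leukocyte marker was called higher and 1 stellate marker lower. With PeCDF at 2 nM 1 hepatocyte, 1 Kupffer and leukocyte and 2 stellate markers were called higher and 1 stellate marker lower. Over all gene names 4.63% were called higher and 5.92% lower with TCDD, 1.11% and 1.26% with TCDF, and 1.72% and 2.67% with PeCDF. The part of these cell types in the values above was not tested. In RNA of whole dishes fewer cells of a type and less RNA per cell cannot be told apart.

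Genes whose 14 animal-level ratios were most like those of Nfe2l2 were Cnih1 (Pearson r = 0.96), Klf4 (0.95), Cxcl3 (0.94), Cd44 (0.94) and Nfkb1 (0.93). Those most like Txnrd1 were Bdkrb2 (0.98), Ddit4l (0.96), Cnn3 (0.96), Hspa8-ps27 (0.96) and Defb1 (0.95). These r values were taken over the 14 ratios among 14848 candidate genes, they rest largely on the upper doses, and the ratios of an animal may share DMSO RNA. Nfkb1, a subunit of NF-kappaB, was at 0.99 with TCDD at 1 nM, Klf4, a transcription factor, at 0.80 and Cxcl3, a chemokine, at 1.16.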

How the data were processed

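RNA of 7 groups was measured on 28 two-colour Agilent arrays, 2 animals in 2 dye orientations per group, each against DMSO RNA. In the deposited scanner files the authors give each spot a mean signal and a median local background as intensity, per the file headers, with Alexa555 in green and Alexa647 in red. Their log10 ratio, red over green after the authors' background and dye correction, is the same, turned to group over DMSO, in the deposited series table (largest difference 4.871e-06). The submitters' processing notes give Feature Extraction 9.1, and the file headers an earlier release.

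Intensities were read with R 4.3.3 and limma 3.58.1 (with data.table, version 1.17.8), corrected with normexp (offset 50) and loess-normalized with 2256 control spots at weight 0. Spots marked as non-uniform or as outliers (0.0921%) were dropped. The log2 ratios computed from the deposited intensities were turned to group over DMSO, and both orientations were averaged within each animal, giving 14 values. Kept probes were well above background on every array of at least 1 group or in 14 DMSO channels, and the brightest probe stood for a gene. A group-means limma fit with eBayes had 7 residual degrees of freedom. It was run on simulated data with independent noise. Deviations of the real animals correlated between some groups (below), so that run cannot show how the fit behaves with shared animals. P-values were adjusted by Benjamini-Hochberg over all gene names. No read depth exists for arrays; 2 animals per group limit the precision, and the dishes of an animal were pooled, so p-values measure the spread between these samples.

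The file headers date the scan extraction to 4 days, grouped into 2 sessions: untreated and TCDD, and the furans. Within a session the orientation coincides with the day. Groups share animals A and B by the labels. The A minus B deviations of 2 groups correlated between -0.392 and 0.562 (median 0.126), above 0.1 in 11 of 21 pairs of groups.

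All 8 genes were named. Of the regulators and the lists of the wider set, genes called at an upper dose were named, up to 6 per list by smallest p. Of the ATF4 targets only some called genes were named, and the cell type markers were counted without names. Added were Nqo1, Hmox1, Bach1, Mafg, Cul3, Sqstm1, Cyp1a1, Cyp1b1 and Tiparp whatever their values. Gsta2 was added for its place in the receptor battery. The 5 genes most like Nfe2l2 and Txnrd1 were named too. Members and lists were chosen with earlier results of these data known, so their direction is not independent evidence. Symbols and sequences came from RefSeq (GRCr8). Sesn2, Ahrr, Acta2 and Eng were not analysed here. Alternatives were the deposited ratios, no background correction, median centring, a stricter filter, animal, day or session terms, and leaving out an animal.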

Additional observations from a re-analysis of the deposited data

Results flagged for a closer look

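Gclm differed between TCDD at 1 nM and PeCDF at 2 nM by 0.4212 on the log2 scale (adjusted p = 0.04683 in the limma fit). The ratio over DMSO was 0.55 with TCDD and 0.13 with PeCDF. In limma fits the call was lost with the deposited ratios (adjusted p = 0.1455) and without background correction (0.06731). It was also lost with median centring (0.9999) and with the animal as a replicate block (0.05169). The difference was 0.34 without animal A and 0.50 without animal B. The groups also differed in dose and session. In TCDD at 1 nM the animals moved in opposite directions for 2 genes, with both dye orientations of each animal on the same side of 0. Animal A minus animal B was 1.1307 for Gclc and 1.1627 for Gsr, and these differences between animals were not tested.

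Among 56 sets of 4 arrays (8 genes in 7 groups), 3 held an array set apart from the others, and chance sets apart about 1 in 20 such sets. The 4 arrays are 2 animals in 2 orientations and not 4 separate samples. Keap1 had 1 array at -0.0501 in TCDD at 0.01 nM, against 0.06 to 0.08 on the others, and 1 array at 0.0148 in PeCDF at 0.02 nM, against 0.10 to 0.11. Gsr had 1 array at -0.0349 in TCDD at 0.01 nM, against 0.01 to 0.02. Neither gene was called in these groups.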

How the results depend on the processing

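Of the counts of the 8 genes called, 345 values under alternatives stayed within 1.5 times the main count and 41 did not. Most main counts were 0, so most of the 345 are counts that stayed at 0. The count with TCDD at 1 nM (4 higher) was 2 with median centring, 6 without animal B and 5 with a dye term, and 2 genes were called lower without animal A. Median centring gave 0 higher with TCDF at 10 nM, PeCDF at 2 nM, TCDD 1 minus 0.01 nM and TCDD 1 nM minus PeCDF 2 nM. Leaving out animal A or B gave 0 to 1 higher with TCDF at 10 nM and with PeCDF at 2 nM, 0 to 0 for TCDD 1 nM minus PeCDF 2 nM, 1 in untreated cells without B and 1 for TCDD 1 minus 0.01 nM without A. Without A, 2 genes were lower in each of TCDD 1 nM minus PeCDF 2 nM, minus TCDF 10 nM and minus TCDD 0.01 nM. With TCDD at 1 nM Gclc ranged from -0.38 without A to 0.75 without B and Gsr from -0.78 without A to 0.38 without B, and for TCDD 1 minus 0.01 nM Gclc ranged from -0.54 to 0.65. With the animal as a replicate block PeCDF 2 minus 0.02 nM gave 1 higher and TCDD 1 nM minus PeCDF 2 nM gave 0, and no other call of the 8 genes changed. With a block for each animal in each session, added after the data were seen, these were 1 and 2. The deposited series table, the scanner log ratio and no background correction gave 0 for TCDD 1 nM minus PeCDF 2 nM, and one session alone gave 1 for TCDD 1 minus 0.01 nM. Fits of single arrays with a dye term gave 6 higher with PeCDF at 2 nM, 7 with TCDF at 10 nM, 2 with TCDD at 0.01 nM, 1 in untreated cells, 4 for TCDD 1 nM minus PeCDF 2 nM, 4 higher and 1 lower for TCDD 1 nM minus TCDF 10 nM, and 3 for each furan step. With the day as a random block they gave 5 with PeCDF at 2 nM, 6 with TCDF at 10 nM, 2 with TCDD at 0.01 nM, 4 for TCDD 1 nM minus either furan and 3 for each furan step. The fit with the day as a random block counts both orientations of an animal as separate samples. The fit with a dye term takes them as correlated, with a correlation shared by all genes. Calls of either fit are no independent evidence. The cause of the median-centring values was not tested. For single genes 1441 values kept their side of the threshold, 61 gained a call, 39 lost it and 3 changed sign with a call on either side. Most of the 1441 were results not called in the main fit that stayed uncalled, and only called results could lose a call. The deposited series table and the scanner log ratio hold the same ratios but were counted as separate alternatives. Of the 1441, 35 changed sign and were called in neither fit. These included Gsr without animal B, at 0.15 for TCDD 1 nM minus PeCDF 2 nM and 0.39 for TCDD 1 minus 0.01 nM, and Txnrd1 (-0.15) and Gclm (-0.07) for TCDD 1 nM minus TCDF 10 nM with median centring. All 8 genes passed the stricter filter on dim probes.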
